A study of Mus musculus with 14 samples.

Results

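The data described here are the wild-type (WT) small intestinal organoids of a mouse RNA-seq series, 4 libraries of 14 in all, taken by their titles (WT 1 to WT 4). Organoids are three-dimensional cultures that grow from the stem cells of intestinal crypts and hold only epithelium. The WT organoids were grown from the small intestine of mice with floxed Atg16l1 and floxed Rnaseh2b alleles (ATG16L1flox/flox_RNaseH2Bflox/flox in the labels), so both genes were floxed but the label names no Cre. They received no treatment, were kept in Intesticult medium, and polyadenylated RNA was sequenced as stranded single-end libraries. The study deletes the floxed genes with Cre under the villin promoter. Only the WT columns are described below, and the columns of the 10 knockout libraries were left out. The deposited values were normalised together over 14 libraries, however, so the knockout libraries may have affected the WT values. The sources used here do not give the age or sex of the mice that supplied the organoids, nor the stretch of small intestine from which the crypts came, and they do not say whether the 4 libraries came from separate animals or cultures. Each SD below is therefore the spread between these samples, which may be technical.

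The small intestinal epithelium renews itself from Lgr5+ stem cells at the crypt base. Their progeny become absorptive enterocytes or secretory cells: Paneth cells, which release antimicrobial peptides and feed the stem cells with growth factors, mucus-making goblet cells, hormone-making enteroendocrine cells and chemosensory tuft cells. Along its length the epithelium keeps a regional identity in culture, with iron uptake and lactase typical of the duodenum and jejunum and bile acid uptake typical of the ileum. Under the YAP pathway, injured or newly plated epithelium can take on a fetal-like state with loss of mature markers.

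The deposited table holds 1 normalised log2 value per gene and library for 18781 genes, and 18721 of these (99.7%) had a symbol in the GENCODE M21 annotation. The values over the WT libraries ran from -2.13 to 17.20. They are normalised values, so the sequencing depth of each library is unknown. A gene was called expressed where its WT mean was at least 10 on the linear scale (3.32 on the log2 scale), which 12797 genes (68.1% of those listed) met. A further 2814 genes lay below it, and 3170 genes (16.9%) were under 1 on the linear scale. Each count of expressed list members below is to be read beside the 68.1% of all listed genes. Of the expressed genes, 12111 (94.6%) were protein-coding. Levels divided by exonic length are marked per kb, and the median over expressed genes was 7.19 on this log2 scale. The threshold and the highest or lowest members of lists otherwise refer to values as deposited, which are not scaled by length.

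Features of the table limit what an absence means. None of the 1331 protein-coding genes whose longest transcript has 1 exon was listed, against 39.3% of the 1917 with 2 exons and 94.2% of those with 21 or more, so the secretory regulator Atoh1, the enteroendocrine factor Insm1, the claudins Cldn3 and Cldn4 and the Notch target Nrarp were not analysed here. Among expressed genes the median level per kb was 6.85 for genes with 2 exons and 7.04 to 7.47 for those with more. At low levels the values hardly varied: the median SD over the 4 libraries was 0.00197 for genes with a mean below 0 and 0.0861 for those between 5 and 7, so a small SD in a low gene does not show precision.

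Xist, the X inactivation transcript of cells with 2 X chromosomes, had log2 values of 7.70, 7.69, 13.68 and 13.60 in WT 1 to WT 4. Eif2s3y, on the Y chromosome, ran the other way at 10.65, 10.54, 6.47 and 6.50, and Ddx3y, Kdm5d and Uty followed it. WT 1 and WT 2 were thus low in Xist and high in Y-linked genes, and WT 3 and WT 4 the reverse, with no overlap. By these genes the libraries did not all come from 1 animal. Even so, the low libraries still showed values of 5.87 to 7.70 for these 5 genes, above the threshold for an expressed gene. A mid-range value in 1 library is therefore not proof that the transcript was present in it, and a difference between libraries may be larger than the values give; this was not tested.

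As deposited, where longer transcripts gain, the highest mean belonged to Eef2, the translocation factor of translation, on chromosome 10, at 17.16 ± 0.03 (SD, n = 4, as for every mean below). The translation elongation factor Eef1a1 followed at 16.86 ± 0.05, and the fatty acid desaturase Scd2 was 16.58 ± 0.03. The 20 highest means also held the ATP synthase subunits Atp5b and Atp5a1, the glycolytic Aldoa, Ldha, Gpi1 and Pkm, the mitochondrial enzymes Oat and Cps1, the galectin Lgals4 and Pigr, which carries immunoglobulins across the epithelium. Of the genes named here, Oat (SD 0.25) and Pigr (0.23) varied the most, and the others had SDs of 0.01 to 0.14.

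Scaled per kb, the order moved towards short transcripts. The metal-binding metallothionein Mt2 led at 15.86, before Eef1a1 (15.55), the ribosomal stalk protein Rplp1 (15.45), Eef2 (15.43) and the fatty acid carrier Fabp1 (15.40). The same 20 genes held the galectins Lgals2 (15.21) and Lgals4 (14.60), metallothionein Mt1 (15.08), and the goblet cell products Tff3 (14.61), a trefoil peptide of mucus, and Spink4 (14.60), a secreted protease inhibitor. The 20 highest genes held at most 11.5% of the per-kb signal of a library, the 100 highest 24.8% to 25.7% and the 1000 highest 57.8% to 58.8%.

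**Figure D1:**
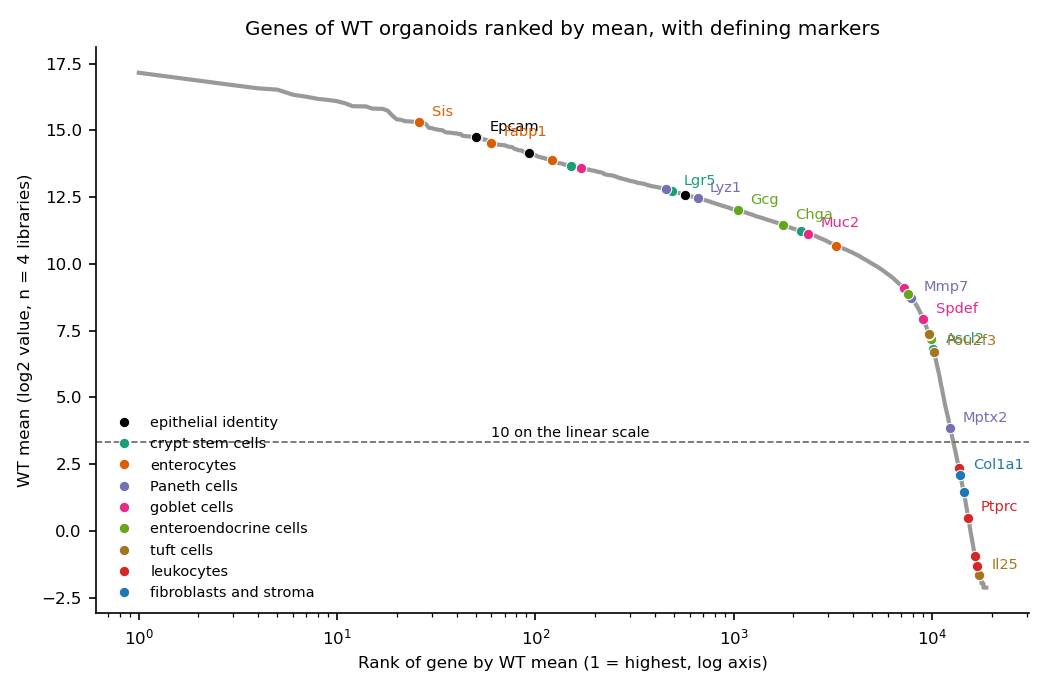
WT mean log2 value of each of the 18781 listed genes against its rank (log axis), with the defining markers of 9 lists as coloured points and a dashed line at 10 on the linear scale. Epithelial, stem, enterocyte, Paneth, goblet and enteroendocrine markers lay above the line, and the leukocyte and stromal markers Ptprc and Col1a1 lay below it.

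The label of small intestinal epithelium was checked first. All 18 listed members of the epithelial identity list were expressed, with a median level per kb of 12.40. The adhesion protein Epcam was 14.73, 14.73, 14.76 and 14.75 in WT 1 to WT 4, and the brush border protein Vil1 was 14.22, 14.15, 14.10 and 14.12. Of the transcription factors of intestinal identity, Hnf4a was 14.74 ± 0.01 and Cdx2 was 12.59 ± 0.04, and the most variable member of the list, Hnf4g, was 11.19, 11.11, 10.99 and 10.87. The median SD of the list was 0.04, beside 0.0609 for all expressed genes.

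Stem cell genes were expressed throughout, 20 of 20, with a median per kb of 8.19. Lgr5, the receptor that marks crypt base stem cells, was 12.93, 12.92, 12.53 and 12.52, and Smoc2, a secreted matrix protein of the same cells, was 13.78, 13.79, 13.54 and 13.63. Both were somewhat lower in WT 3 and WT 4. Olfm4, a secreted stem cell glycoprotein, went the other way at 10.74, 10.86, 11.51 and 11.79, and its SD of 0.51 was 10.7 times the median SD of the genes nearest in level. The stem cell transcription factor Ascl2 was 6.79 ± 0.17, which per kb was 6.09 beside 9.37 for Lgr5, and the lowest member was the Wnt feedback inhibitor Nkd1 at 5.08 ± 0.11. Of the 20 members, WT 1 and WT 2 were both above the others for 11 and both below for 6 (32.4% and 34.4% of all expressed genes). Because these are bulk libraries, fewer cells of a type and less RNA per cell cannot be told apart here or below.

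Cycling cells were well represented. Each of the 20 cell cycle and mitosis genes and of the 20 DNA replication genes was expressed, with medians per kb of 9.36 and 8.60. The proliferation antigen Mki67 was 13.14, 13.06, 13.05 and 13.05, and the topoisomerase Top2a was 13.54 ± 0.03. The median SDs of these lists were 0.04 and 0.05, beside 0.0609 over all expressed genes, and none of their members had an SD of 0.5 or more. Of the replication genes, WT 1 and WT 2 were both above the others for 3 and both below for 11, with a median difference of -0.08. For cell cycle genes these counts were 5 and 3 (32.4% and 34.4% of all expressed genes).

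Enterocyte genes, 22 of 22 expressed, had the highest median per kb of the differentiated lineages, 10.38. Sis, the sucrase-isomaltase that digests disaccharides at the brush border, was 15.50, 15.33, 15.30 and 15.16. The apolipoprotein Apoa4 was 14.12, 14.01, 13.67 and 13.71, and the alkaline phosphatase Alpi was 11.20, 10.95, 10.22 and 10.36. The most variable member was Fabp1, which binds fatty acids in the cytosol, at 15.39, 15.14, 13.78 and 13.88. WT 1 and WT 2 were both above WT 3 and WT 4 for 18 of the 22 members and both below for 3, beside 32.4% and 34.4% of all expressed genes. The lowest member was the peptide transporter Slc15a1 at 7.95 ± 0.07.

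Paneth cell genes were expressed in 16 of 16 listed members, with a median per kb of 8.0, but their levels spread widely. The lectin Itln1 was 14.09 ± 0.09, the alpha-defensin Defa24 was 12.65, 12.51, 12.93 and 13.07, and lysozyme Lyz1 was 12.25, 12.28, 12.72 and 12.64. Per kb these were 13.90, 14.04 and 12.14, and the matrix protease Mmp7, which activates defensins, was 8.64. On the deposited scale the pentraxin Mptx2 was 3.85 ± 0.01 and the macrophage lysozyme Lyz2 was 3.84 ± 0.02, both close to the threshold, and 4.18 and 3.44 per kb. Lyz2 counts among the 16 but also stands on the leukocyte list. Without it, Paneth markers still ran from far above the median gene to Mptx2, near the limit of the call. WT 1 and WT 2 were both above the others for 2 of the 16 and both below for 10 (32.4% and 34.4% of all expressed genes). The alpha-defensin genes are close copies of each other, so reads may have been lost or split among them, and the order within the family is uncertain; the most variable member was Defa30 (8.11 ± 0.31).

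Goblet cell genes were expressed in 14 of 15 members, with a median per kb of 8.42. Fcgbp, a mucus protein, was 14.99, 14.98, 15.66 and 15.63, and the gel-forming mucin Muc2 was 10.75, 10.81, 11.49 and 11.50. Both were higher in WT 3 and WT 4, as were 10 of the 14 expressed members, with 1 the other way (34.4% and 32.4% of all expressed genes). Muc2 was the most variable of the list (SD 0.41). The goblet cell transcription factor Spdef was 7.94 ± 0.02 and the chloride channel regulator Clca1 was 9.09 ± 0.10, with no such split. Retnlb, a resistin-like protein that goblet cells make during worm infection, was at -1.49 in each library.

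Enteroendocrine genes were expressed in 23 of 24 members, with a median per kb of 7.03. The granule protein Chgb was 14.04 ± 0.20 and Chga was 11.28, 11.27, 11.61 and 11.66. Among hormones, Gcg, the proglucagon gene of L cells, was 11.98, 11.95, 12.05 and 12.04, and cholecystokinin (Cck, 10.98 ± 0.06), the incretin Gip (10.50 ± 0.12), somatostatin (Sst, 9.86 ± 0.28), ghrelin (Ghrl, 9.38 ± 0.07) and neurotensin (Nts, 7.64 ± 0.07) were expressed as well. Tph1, the serotonin synthesis enzyme of enterochromaffin cells, was 8.88 ± 0.25, and the lineage factors Neurod1 (7.17 ± 0.12) and Neurog3 (7.98 ± 0.22) were expressed too. Peptide YY (Pyy) was 5.65 ± 0.20, and only galanin (Gal, 0.13 ± 0.01) fell below the threshold. Both WT 1 and WT 2 were below the other libraries for 19 of the 23, and both above for 2 (34.4% and 32.4% of all expressed genes).

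Tuft cell genes were less abundant. Of 20 members 14 were expressed, near the 68.1% of all listed genes, but their median per kb was 4.30, beside 7.19 for all expressed genes. At a threshold of 50 on the linear scale 7 remained. The microtubule kinase Dclk1 was 7.27, 7.25, 7.38 and 7.39, the taste transduction channel Trpm5 was 7.25, 7.11, 7.55 and 7.56, and the lineage factor Pou2f3 was 6.56, 6.64, 6.75 and 6.90. Their cytokine Il25 was at -1.65, and the choline acetyltransferase Chat and the gustducin Gnat3 were also under 1 on the linear scale. Of the 14 expressed tuft cell genes, WT 1 and WT 2 were both below the others for 9 and both above for 0 (34.4% and 32.4% of all expressed genes). Markers of M cells, which sample antigen over lymphoid follicles, gave a mixed picture. Their uptake receptor Gp2 was at the table's lowest value, -2.13, in all 4 libraries, and the factor Spib was 5.67 ± 0.11. The 9 of 10 expressed members held genes that other epithelial cells also express, such as the peptidoglycan receptor Pglyrp1 (11.28 ± 0.04).

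Of the genes that set the choice between secretory and absorptive fate, 8 of 9 listed were expressed. The Notch target Hes1 was 10.86, 10.86, 10.25 and 10.31, with WT 1 and WT 2 above the others. The receptor Notch1 was 10.58 ± 0.04 and the ligand Dll1 was 9.22, 9.32, 9.15 and 9.26, with no such order in Dll1. Hes5 lay below the threshold at 2.41 ± 0.05.

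**Figure D2:**
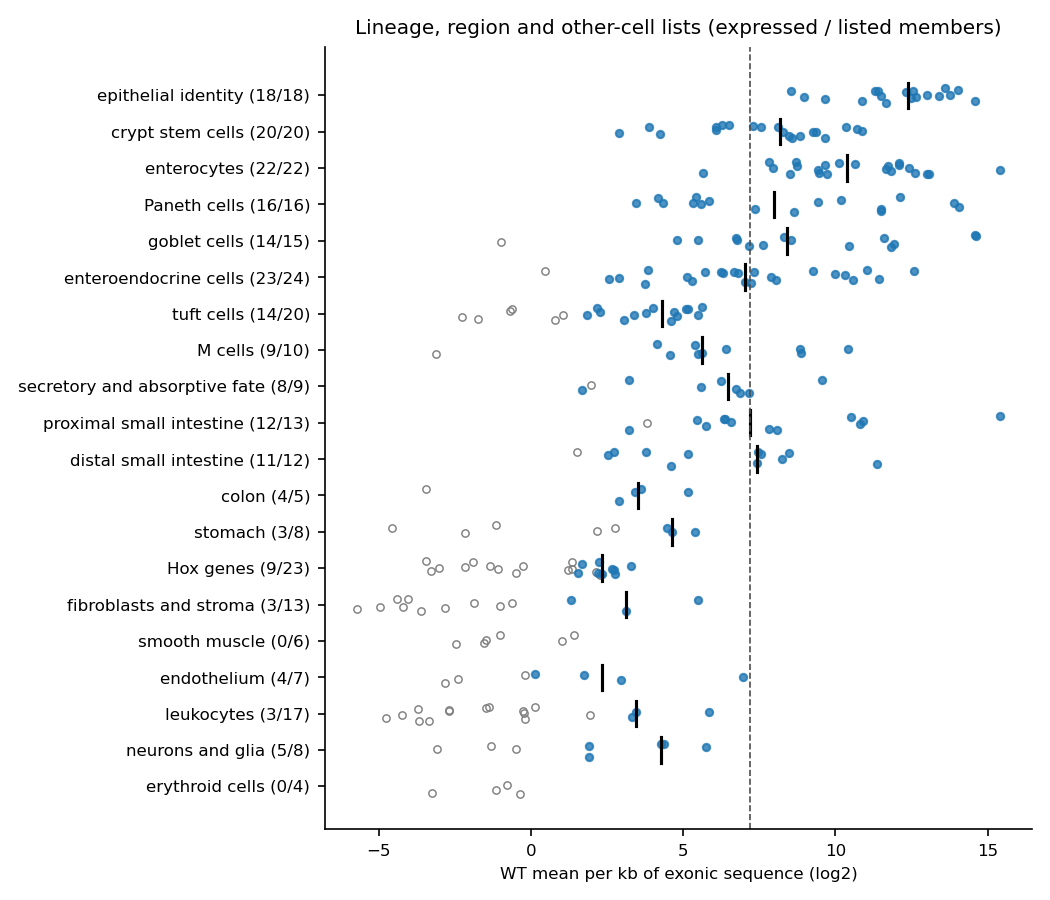
WT mean per kb of exonic sequence (log2) of each listed member of the lineage, region and other-cell lists; filled points are expressed, open points are not, black bars are medians of expressed members, and the dashed line is the median of all expressed genes (7.19). Epithelial identity and enterocyte members lay mostly to the right of the line, while tuft cell, Hox, stromal and leukocyte members lay to the left.

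Regional identity was read from further lists, of which the proximal list shares Fabp1 and Lct with the enterocyte list. Of 13 genes typical of proximal small intestine, 12 were expressed, and the duodenal and jejunal factor Gata4 was 12.52, 12.48, 12.41 and 12.45, nearly even across the libraries. Other proximal genes were uneven: 6 of the 12 had an SD of at least 0.5, beside 0.50% of all expressed genes (64 of 12797). Slc40a1, the ferroportin that exports iron into blood, was 10.58, 10.19, 8.65 and 8.61. The duodenal and pancreatic factor Pdx1 was 7.40, 7.43, 6.39 and 6.21, and Onecut2 was 11.13, 11.05, 10.15 and 10.03. Lct, the lactase, was 11.18, 10.86, 10.05 and 9.98, and the drug-metabolising Cyp2b10 was 12.65, 12.20, 11.30 and 11.35. Each of these stood higher in WT 1 and WT 2, as did Fabp1. Of the 12 expressed members 10 did so without overlap, with 1 the other way (32.4% and 34.4% of all expressed genes). The stomach and duodenal trefoil peptide Tff2 was the member below the threshold, at 3.05 ± 0.08.

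Genes of the distal small intestine were expressed in 11 of 12, with a median per kb of 7.43, above that of the proximal list. The genes that define the ileum lay below this median per kb, as did the proximal factors Pdx1 and Onecut2. Fabp6, the ileal bile acid binding protein, was at 0.44 ± 0.02, and Fgf15, the bile acid induced hormone, was 4.18, 4.18, 4.49 and 4.56. Slc10a2, which takes up bile acids, was 6.31, 6.23, 7.12 and 6.90, the largest SD of the list (0.44) and higher in WT 3 and WT 4. As deposited, Slc10a2 stood above Pdx1 in WT 3 and WT 4 (6.39 and 6.21 for Pdx1) and below it in WT 1 and WT 2 (7.40 and 7.43). The guanylate cyclase ligand Guca2b was the highest member per kb (11.38), at 11.18 ± 0.09 as deposited. WT 1 and WT 2 were both above the others for 3 members and both below for 6 of the 11 (32.4% and 34.4% of all expressed genes).

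Genes of neighbouring organs were mostly low. Among colon genes 4 of 5 listed were expressed; the water channel Aqp8 was 3.57 ± 0.09 and Hoxd13 was at -2.13. At a threshold of 50, 2 of these 4 remained. Among stomach genes 3 of 8 were expressed: the acid pump subunit Atp4a (7.31 ± 0.12), the pepsinogen Pgc (4.95 ± 0.03) and the trefoil peptide Tff1 (4.14 ± 0.11), while the mucin Muc5ac (-1.14 ± 0.02) and the gastrokine Gkn1 (-0.84) were under 1. Hox genes, which record position along the body axis, passed in 9 of 23, from Hoxa and Hoxb clusters, and in 0 at the stricter threshold. Hoxa9 had the highest value as deposited, at 5.54, 5.13, 4.02 and 4.04, again with WT 1 and WT 2 above.

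Most genes of cells other than epithelium were low. Of the 55 listed members of the stromal, muscle, endothelial, leukocyte, neural and erythroid lists 15 were expressed, beside 68.1% of all listed genes. The endothelial (4 of 7) and neural (5 of 8) lists came nearer to that share than the others. The collagen Col1a1 was 2.12, 2.09, 2.07 and 2.04, the receptor Pdgfra was 1.47 ± 0.01, and the pan-leukocyte phosphatase Ptprc was 0.48, 0.48, 0.48 and 0.53. The T cell receptor chain Cd3e (-1.33 ± 0.01) and the B cell receptor chain Cd79a (-0.95 ± 0.01) were under 1. None of the 6 smooth muscle or 4 listed erythroid genes passed. The smooth muscle actin Acta2, named after its values were seen, was 2.84 in WT 2 and 1.94 to 1.96 in the others. Exceptions were the intermediate filament Vim (7.41, 7.52, 7.97 and 7.98), the hyaluronan receptor Lyve1 (8.52 ± 0.15) and the neurotrophic receptor Ret (8.49 ± 0.16), all of them somewhat higher in WT 3 and WT 4. The summed level of the leukocyte list ran only from 7.21 to 7.34 (log2) and that of the stromal list from 8.01 to 8.40. None of the 2 stromal and 4 leukocyte defining markers that the table lists passed the threshold, although single members such as the myeloid Cd68 (6.17 ± 0.05) and Itgam (5.64 ± 0.19) did.

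Biosynthetic and energy programmes were expressed in full or nearly so. Each of the 20 respiratory chain genes was expressed (median per kb 11.64), with Atp5b at 16.18 ± 0.02, and so were the 20 cholesterol synthesis genes (median per kb 10.17). Fatty acid oxidation genes were expressed in 17 of 18. In this list WT 1 and WT 2 were both above the other libraries for each of the 17 expressed members, beside 32.4% of all expressed genes. The respiratory chain showed the same order in 18 of 20, but with a median difference of 0.09, against 0.26 for fatty acid oxidation. Ribosomal protein genes lay the other way in 18 of 24 (34.4% of all expressed genes), with a median difference of -0.09.

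Ribosomal protein genes also spread widely in level, per kb from 4.58 for Rps6 to 15.45 for Rplp1. GENCODE M21 names at least 1 pseudogene after 13 of the 24, and their median per kb was 10.47 (4.58 to 15.45), beside 13.04 (6.12 to 15.09) for the other 11. Reads that match pseudogenes equally well may have been dropped or shared, so the levels of such genes are uncertain; this was not tested.

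Stress programmes were readily measured. Each of the 16 hypoxia response genes was expressed (median per kb 10.31), with the carbonic anhydrase Car9 at 13.27 ± 0.04 and the growth factor Vegfa at 12.65 ± 0.16. The same held for the 20 genes of the unfolded protein response, with the chaperones Hspa5 and Hsp90b1 both at 14.50, and for the 18 p53 targets, with the cell cycle inhibitor Cdkn1a at 12.85 ± 0.05 and the p53 ligase Mdm2 at 10.44 ± 0.07. NRF2 target and glutathione genes were expressed in 16 of 16, with Gsta4 at 13.29 ± 0.08 and Nqo1 at 10.55 ± 0.10. No control was measured for these programmes, so the values give levels and not activation.

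The floxed genes were both expressed. Atg16l1, a scaffold of autophagosome formation, was 9.43, 9.54, 9.44 and 9.44, and Rnaseh2b, a subunit of the enzyme that removes ribonucleotides from DNA, was 8.47, 8.41, 8.58 and 8.70. Their partners Atg5 (10.33 ± 0.04), Rnaseh2a (10.35 ± 0.04) and Rnaseh2c (9.63 ± 0.07) were expressed as well, and so were all 22 autophagy and all 10 ribonucleotide repair genes. Among sensors of nucleic acids 11 of 12 were expressed, with Cgas, the DNA sensor, at 8.66 ± 0.07 and its partner Tmem173 (STING) at 5.19 ± 0.03 (6.61 and 3.74 per kb), while Tlr9 was at -1.97. In the cell death list 13 of 15 passed, with the necroptosis kinase Ripk3 at 11.04 ± 0.08, its effector Mlkl at 6.32 ± 0.08 and the inflammasome receptors Nlrp6 at 13.32 ± 0.06 and Nlrp3 at -0.25 ± 0.01.

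Of 26 interferon-stimulated genes 20 passed the threshold (68.1% of all listed genes did) and 12 passed at 50, and the median per kb of the 20 was 5.27, beside 7.19 for all expressed genes. As deposited, the highest values were those of Oasl1 at 10.13, 10.04, 10.53 and 10.58 and of the signal transducer Stat2 at 9.84 ± 0.13. Per kb these were 8.94 and 7.27, and the highest member of the list per kb was at 9.55. Isg15 was 4.74 ± 0.06 and the chemokine Cxcl10 was 4.58 ± 0.03, while Ifit1 was 6.54, 6.54, 7.12 and 6.97. The transcription factor Irf7 was 8.40, 8.36, 8.91 and 8.46, so that WT 3 stood above the other libraries. MHC class I genes were abundant, with B2m at 12.63 ± 0.05 and H2-K1 at 13.89 ± 0.05 and 11 of 12 expressed. For 9 of these 11, WT 1 and WT 2 were both above the others, and for 0 both below (32.4% and 34.4% of all expressed genes). In contrast, 3 of 8 MHC class II genes passed. The highest was H2-DMa at 7.67, 7.69, 7.25 and 7.27, and the most variable was H2-Ab1 at 7.27, 7.01, 6.63 and 6.50. The invariant chain Cd74 passed narrowly at 3.49 ± 0.05, and the class II transactivator Ciita (1.68 ± 0.01) did not pass.

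Innate defence genes were expressed in 11 of 14, beside 68.1% of all listed genes. The secreted lectin Reg1 was 9.28, 8.86, 7.10 and 7.06, an SD of 1.16 and 14.7 times that of genes of like level. Reg3b (7.98, 7.71, 7.18 and 7.24) and Reg3g (8.64, 8.50, 8.29 and 8.27), both bactericidal lectins, lay in the same order with smaller gaps. Duox2, which makes hydrogen peroxide at the cell surface, was reversed, at 6.71, 6.66, 7.62 and 7.65. The acute phase protein Saa1 was at -1.97 and Lcn2 at 3.40 ± 0.01. Chemokines and cytokines passed in 9 of 16, with the gut-homing chemokine Ccl25 (12.93 ± 0.17) the highest, Cxcl1 (3.14 ± 0.02) below the threshold and Tnf at 4.35 ± 0.09.

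Barrier, transport and niche genes completed the picture. Junction genes were expressed in 16 of 17, with the pore-forming claudins Cldn15 at 13.48 ± 0.14 and Cldn2 at 13.10, 13.09, 12.68 and 12.68. Among ion transport genes 18 of 20 passed: the chloride channel Cftr was 12.66 ± 0.11, whereas the sodium channel subunits Scnn1b (-1.97) and Scnn1g (-2.13) were near the table's lowest value, while Ano1, a calcium-activated chloride channel, was the most variable member at 6.49, 6.35, 7.82 and 7.74. Of 19 Wnt ligand and R-spondin genes 6 were expressed and 1 passed at 50. That gene was Wnt3, the Paneth cell Wnt, at 7.26, 7.13, 7.27 and 7.38, while Wnt2b was at -2.13 and Rspo3 at -1.97, both of them stromal factors. The EGF family passed in 9 of 11, with amphiregulin (Areg) the highest at 12.23, 12.16, 12.78 and 12.75 and Egf itself at 4.90 ± 0.04. Each of the 15 clock genes was expressed, the lowest being Rora (3.88 ± 0.02).

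The 4 libraries were not equally alike. Across 12417 expressed autosomal genes, the deviations of each library from the WT mean correlated at 0.71 between WT 1 and WT 2 and at 0.72 between WT 3 and WT 4, and at -0.83 to -0.88 in the other combinations; deviations from a mean of 4 unrelated libraries would correlate at -0.33. Genes share their libraries and are not independent replicates. Levels themselves correlated at 0.9966 or more in every combination. The median absolute difference of an expressed gene was 0.0426 between WT 1 and WT 2, 0.0443 between WT 3 and WT 4, and 0.0763 between the means of these pairs. The pairs are the ones set apart by Xist and the Y-linked genes, so that sex, donor and whatever else differed between the cultures cannot be told apart, and all 4 libraries carry the same lane label.

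Within a pair the libraries were close but not identical. The largest gap was that of clusterin (Clu), a secreted chaperone of regenerating epithelium, at 6.88 in WT 1 and 7.86 in WT 2, next to 8.28 and 8.35 in WT 3 and WT 4. The interferon-stimulated Ifi27 was 8.40 in WT 3 and 7.78 in WT 4, and Oasl2 was 7.30 and 6.83. Fibronectin (Fn1) was 5.26 in WT 2 and 4.67 to 4.79 in the others. These genes were chosen after their values were seen.

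Of the 12797 expressed genes, 64 were variable by the rule of an SD of at least 0.5, and 59 of these were autosomal. In 36 of the 64, WT 1 and WT 2 were both above WT 3 and WT 4, and in 28 both below, so no variable gene broke this order, beside 32.4% and 34.4% of all expressed genes. A large SD in 4 libraries that fall into pairs favours such genes, and the counts are a description. The threshold fell within a continuum: just inside were Klf6 (0.501), Ctrb1 and Nlrc3 (both 0.502), and just outside were Ggh (0.498), Wwtr1 and Clca3b (both 0.488).

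**Figure D3:**
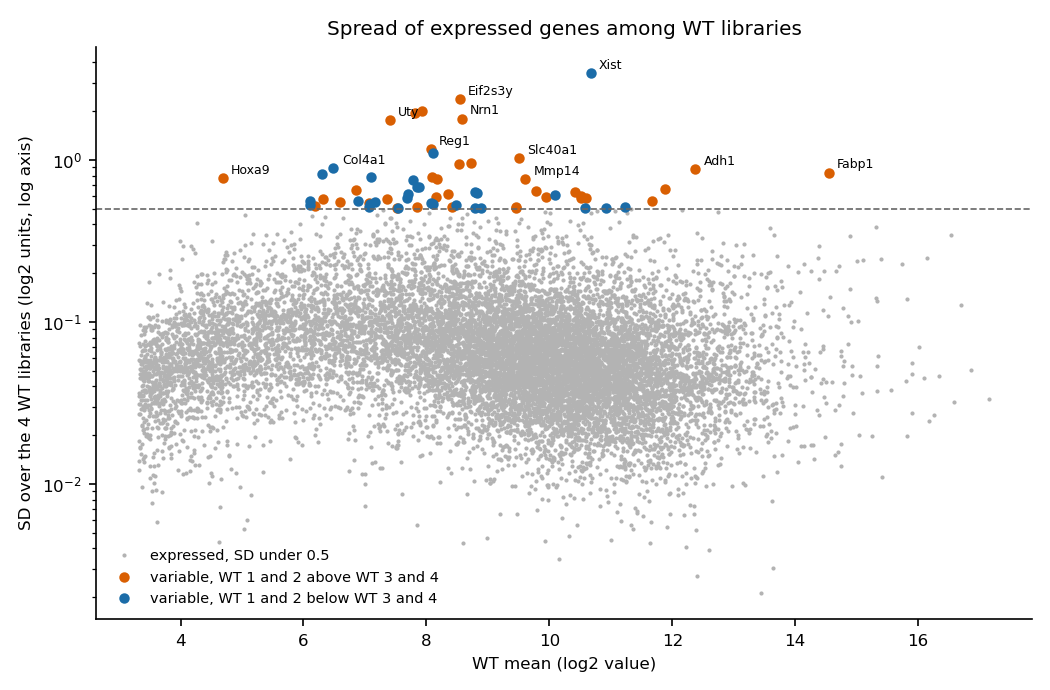
SD over the 4 WT libraries (log axis) against WT mean for the 12797 expressed genes; orange and blue points are the 64 variable genes with WT 1 and WT 2 above or below WT 3 and WT 4, and the dashed line is an SD of 0.5. Sex-linked genes and Nrn1 stood farthest from the mass of genes, whose median SD was 0.0609.

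Genes higher in WT 1 and WT 2 included 4 Y-linked genes and Nrn1, a membrane-anchored neurite growth protein, at 10.24, 10.01, 6.99 and 7.05. Its SD of 1.80 was the highest of any autosomal gene. The iron exporter Slc40a1 and the lectin Reg1 came next, followed by the RNA-binding protein Igf2bp3 (9.66, 9.44, 7.88 and 7.94) and the matrix protein Fras1 (9.38, 9.32, 7.66 and 7.77). Among metabolic genes, the alcohol dehydrogenase Adh1 was 13.29, 12.95, 11.56 and 11.69, the alkaline phosphatase Akp3 was 8.97, 8.69, 7.47 and 7.57, and the retinol carrier Rbp2 was 12.24, 12.06, 11.16 and 11.24. The lipid regulator Creb3l3, the peptidase Mme, the glucuronosyltransferase Ugt2b5 and the cytochrome Cyp2c38 were also among the 36. So were the matrix protease Mmp14 (10.28, 10.25, 8.89 and 9.01), the potassium channel subunit Kcns3 and the transcription factor Mycn.

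Genes higher in WT 3 and WT 4 were led, after Xist, by the surface protein mesothelin (Msln), at 7.05, 7.28, 9.02 and 9.11. The basement membrane collagens Col4a1 (5.68, 5.76, 7.35 and 7.16) and Col4a2 (5.58, 5.60, 6.98 and 7.04), which share a promoter region on chromosome 8, followed, with Ano1. Annexin A1 (Anxa1) was 7.23, 7.06, 8.48 and 8.37, the YAP target Ccn1 was 7.33, 7.27, 8.47 and 8.47, and the surface antigen Ly6a (Sca-1) was 7.25, 7.12, 8.36 and 8.11. The immediate early gene Fos was 8.43, 8.49, 9.34 and 9.32, and the immediate early genes Dusp1 and Klf6 and the pseudokinase Trib1 were among the 28.

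**Figure D4:**
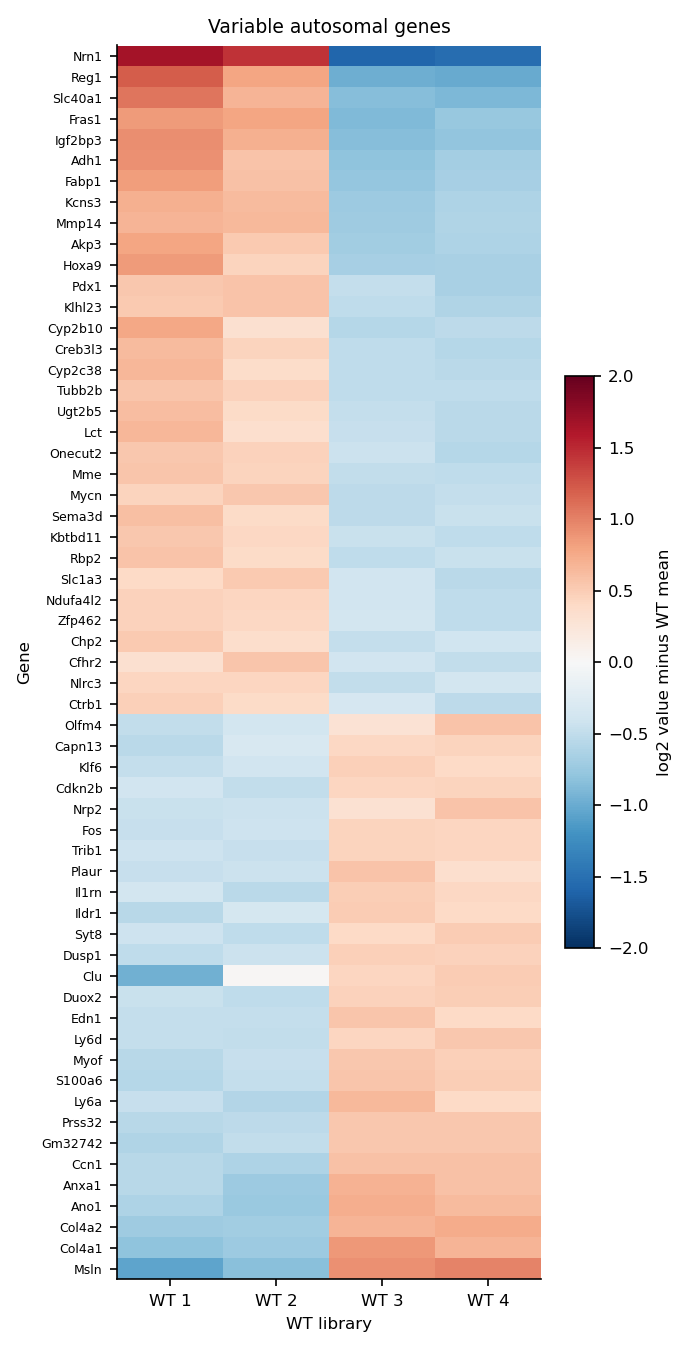
Log2 value minus the WT mean of the 59 variable autosomal genes in each WT library, red above and blue below the mean. The upper 32 genes were higher in WT 1 and WT 2 and the lower 27 higher in WT 3 and WT 4; Clu stood near the mean in WT 2.

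Read by list, the fetal-like and YAP target genes had the largest median SD (0.33) of the lists with 8 or more expressed members, after the proximal genes (0.47). Of 18 listed, all were expressed, with a median per kb of 6.15, and 7 were variable: Msln, Anxa1, Clu, Ccn1, Ly6a, S100a6 (9.52, 9.63, 10.66 and 10.59) and the interleukin-1 antagonist Il1rn (8.12, 7.95, 8.97 and 8.90). WT 1 and WT 2 were both below the others for 14 of the 18 and both above for 0 (34.4% and 32.4% of all expressed genes), and the median difference was -0.57. Of the members that were not variable by the rule, the keratin Krt7 was 11.49, 11.53, 12.05 and 12.10, higher in WT 3 and WT 4 as Areg was. The YAP targets Ctgf (5.41 ± 0.06) and Ankrd1 (3.55 ± 0.05) and the fetal marker Spp1 (4.32 ± 0.08) lay at low levels, where a small SD says little. The proximal list had the opposite median difference, 0.80, enterocytes 0.37, innate defence 0.29 and goblet cells -0.29. For the autophagy, p53, cell cycle, epithelial identity and cholesterol synthesis lists it ran from -0.02 to 0.02.

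**Figure D5:**
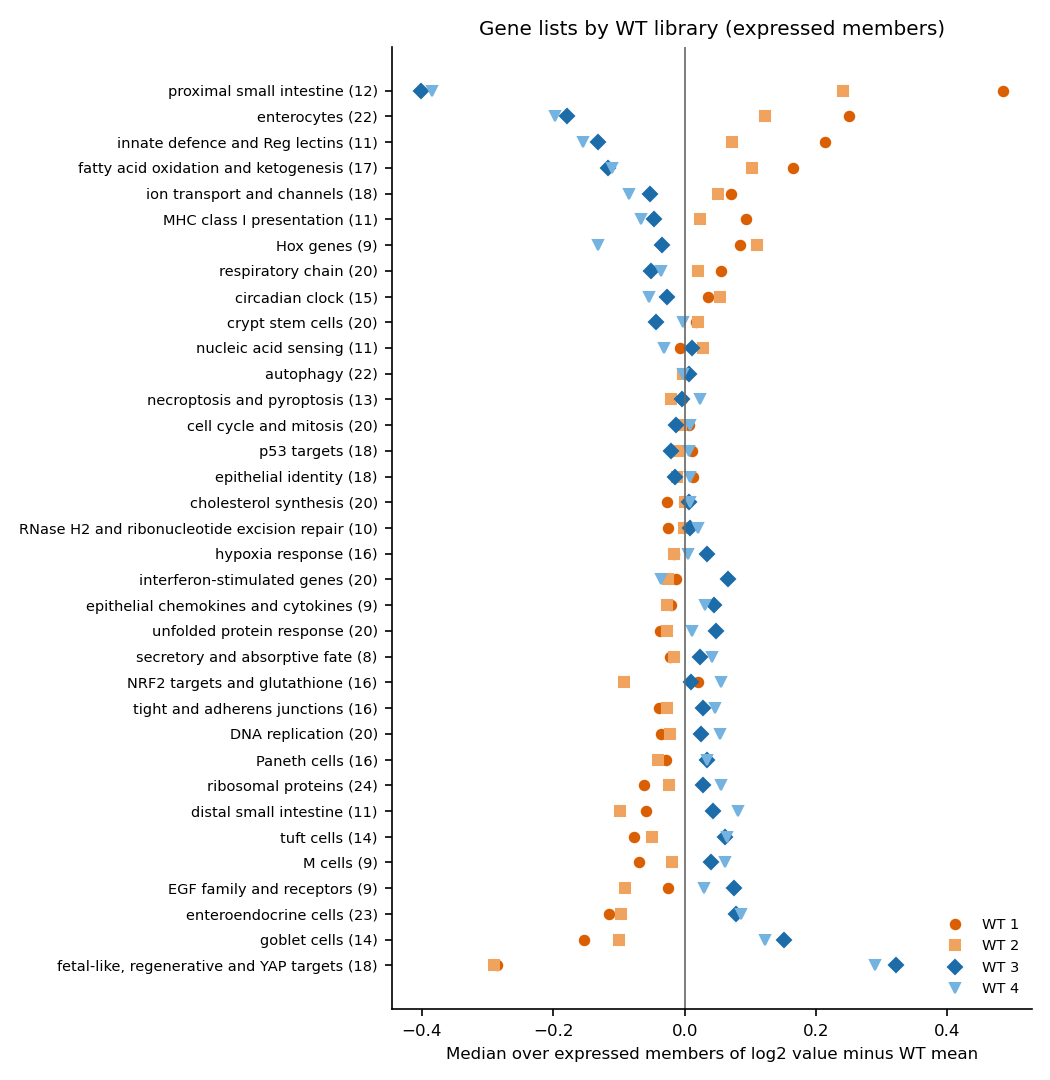
Median, over the expressed members of each list with 8 or more of them, of the log2 value minus the WT mean, by library; the number of expressed members stands in parentheses. Proximal and enterocyte lists were highest in WT 1 and WT 2, and fetal-like, goblet and enteroendocrine lists in WT 3 and WT 4.

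The upstream sequences of variable members of the 2 most uneven lists are shown because these genes differed together between the libraries. From each list they are the 3 variable members of largest SD with a RefSeq window whose upstream part lies at least 100 bases outside the GENCODE gene. They come from RefSeq (GRCm38.p6), which had windows for 28 of the 36 genes higher in WT 1 and WT 2 and for 23 of the 28 higher in WT 3 and WT 4. Each runs 5′ to 3′ on the gene's strand and ends at the RefSeq start, or before the GENCODE gene where that begins earlier. Il1rn has 3 windows, of which the one nearest the GENCODE start was taken. Capitals mark matches, on either strand, to 4 short motifs that do not overlap each other here. The GATA factors were searched as AGATAA. A part of the HNF1 site was searched as GTTAAT. TEAD factors, the partners of YAP on DNA, were searched as GGAATG. The AP-1 dimer, which holds Fos, was searched as TGANTCA.
Fabp1, chr6:71199629-71199826, plus strand: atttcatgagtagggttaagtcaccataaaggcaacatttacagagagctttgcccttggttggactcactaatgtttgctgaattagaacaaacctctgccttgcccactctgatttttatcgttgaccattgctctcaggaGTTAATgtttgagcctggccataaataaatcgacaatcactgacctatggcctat
Cyp2b10, chr7:25897408-25897619, plus strand: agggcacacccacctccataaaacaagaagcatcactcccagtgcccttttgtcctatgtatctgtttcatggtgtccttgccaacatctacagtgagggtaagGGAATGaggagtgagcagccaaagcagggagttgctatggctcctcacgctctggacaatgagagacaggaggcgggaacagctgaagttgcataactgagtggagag
Pdx1, chr5:147269847-147269958, plus strand: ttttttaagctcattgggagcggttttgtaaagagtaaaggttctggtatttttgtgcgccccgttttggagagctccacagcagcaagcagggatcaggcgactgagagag
Ccn1, chr3:145649986-145650235, minus strand: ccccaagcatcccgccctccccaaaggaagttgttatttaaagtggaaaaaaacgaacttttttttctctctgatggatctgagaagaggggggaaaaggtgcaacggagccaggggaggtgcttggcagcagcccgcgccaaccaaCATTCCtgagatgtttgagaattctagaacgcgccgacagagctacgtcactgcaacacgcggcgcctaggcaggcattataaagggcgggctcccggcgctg
S100a6, chr3:90612644-90612881, plus strand: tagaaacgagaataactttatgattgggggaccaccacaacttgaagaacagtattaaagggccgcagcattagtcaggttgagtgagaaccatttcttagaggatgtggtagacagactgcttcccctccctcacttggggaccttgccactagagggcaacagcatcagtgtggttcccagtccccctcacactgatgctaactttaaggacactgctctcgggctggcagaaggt
Il1rn, chr2:24336610-24336852, plus strand: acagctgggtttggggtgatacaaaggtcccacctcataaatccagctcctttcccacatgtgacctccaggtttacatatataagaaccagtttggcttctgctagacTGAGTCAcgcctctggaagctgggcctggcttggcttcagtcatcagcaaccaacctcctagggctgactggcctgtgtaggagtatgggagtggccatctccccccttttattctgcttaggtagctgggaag

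Fabp1 held 1 match to GTTAAT, Cyp2b10 and Ccn1 1 match each to GGAATG, and Il1rn 1 match to TGANTCA, and none of the 4 motifs was found in the stretches of Pdx1 and S100a6. Over all 32851 windows of 250 bases before a start, 9.99% held AGATAA, 6.43% GTTAAT, 12.6% GGAATG and 6.75% TGANTCA. Of the 34 windows of genes higher in WT 1 and WT 2, 17.6% held AGATAA, 17.6% GTTAAT, 14.7% GGAATG and 8.82% TGANTCA. Of the 27 windows of genes higher in WT 3 and WT 4, 0% held AGATAA, 7.41% GTTAAT, 14.8% GGAATG and 11.1% TGANTCA. The shares rest on 0 to 6 windows each and describe letters, not bound sites.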

How the data were processed

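Libraries of mouse small intestinal organoids were processed by the authors with cutadapt for trimming, TopHat2 for alignment (build GRCm38), HTSeq for counting and DESeq2 for normalisation, per the study's methods and the submitters' notes; versions and the transformation are not given in the sources used here. The deposited values are log2 values, normalised together over 14 libraries; 0 columns were left unmapped. Strand use in counting is not given, so antisense and overlapping genes are uncertain.

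Only the 4 WT columns were used, and no test between groups was made, since there is 1 group; single libraries were compared with Dixon's ratio. Means, SDs and per-kb levels (GENCODE M21 exon unions) were computed with Python 3.11.15, pandas 2.3.3 and numpy 2.4.6 and tested on simulated data. A gene was expressed at a mean of 10 on the linear scale and variable at an SD of 0.5. Named genes were the 20 highest by mean, per kb and by SD, and in each of 46 lists the defining, the highest 2, the lowest and the most variable members, with further members as examples. Members and lists were chosen with earlier results of these data known. Depth is unknown, so no counting interval is given. Some genes that the rule names are not reported here.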

Additional observations from a re-analysis of the deposited data

Results flagged for a closer look

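Among 295 values tested (named expressed genes and list medians), 8 had 1 WT library set apart from the other 3 by more than Dixon's critical ratio for 4 samples (the gap to the nearest library over the whole range); chance flags about 1 in 20 such groups of unrelated libraries, and the rate for libraries that fall into pairs, as these do, was not computed. WT 4 was apart and higher for Rps15 (ratio 0.882; 14.06 against 13.93 to 13.94) and the inflammasome adaptor Pycard (0.896; 11.77 against 11.66 to 11.67). WT 1 was apart and higher for Mki67 (0.833; 13.14 against 13.05 to 13.06), the ribonucleotide reductase subunit Rrm2 (0.948; 11.22 against 11.14) and the glutathione synthesis gene Gclm (0.923; 11.19 against 11.07 to 11.08). WT 2 was lower for the receptor Pdgfrb (0.881; 5.43 against 5.60 to 5.62) and higher for Atg16l1 (0.89; 9.54 against 9.43 to 9.44), and WT 3 was higher for Cd74 (0.883; 3.57 against 3.46 to 3.47). Each of these genes had an SD under 0.1, so the gaps were small in log2 units.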

How the results depend on the processing

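No paired analysis was possible because the result comes from no test: 1 group was described and no groups were compared. Genes expressed numbered 12797 (10988 at a threshold of 50, 15611 at 1, 12760 with every library past the threshold, 12792 to 12800 leaving out 1 library). Variable genes numbered 64, and 55 to 70 leaving out 1 library (55 without WT 1, 70 without WT 2), 55 to 64 under other pseudocounts or scalings, 59 without chromosomes X and Y, 9 at an SD of 1 and 719 at 3 times the SD of genes of like level, which lets in genes of small SD; of the 719, 99.2% had WT 1 and WT 2 on the same side of WT 3 and WT 4, and under the other settings 100%. At a threshold of 50 the expressed members were 7 for tuft cells, 2 for colon, 1 for stomach, 0 for Hox genes, 1 for stroma, 2 for endothelium, 1 for leukocytes, 1 for neurons and glia, 12 for interferon-stimulated genes and 1 for Wnt ligands. At a threshold of 1 they were 6 for stomach, 18 for Hox genes, 6 for stroma, 4 for smooth muscle, 9 for leukocytes, 1 for erythroid cells, 6 for MHC class II, 15 for chemokines and cytokines and 13 for Wnt ligands. These 2 settings move the counts by construction. Over all settings, 533 of 552 list counts stayed within 1.5 times. List medians per kb moved by more than the spread between libraries in 114 of 616 values. They fell by up to 5.94 over all listed members in place of expressed ones and by up to 3.32 at a threshold of 1, rose by up to 3.20 at a threshold of 50, and shifted by -0.59 (without WT 2) to 0.25 (without WT 1) leaving out 1 library. They rose by up to 0.98 with the longest transcript as length, and by 0.98 for ribosomal proteins without those with a named pseudogene, a setting chosen after seeing the data. With no depth known, genes near the threshold could not be separated from genes not detected.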
